A study of Homo sapiens with 12 samples.

Results

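COV362 (Cov) is an ovarian cancer cell line of epithelial origin, and the data described here are its gene expression after treatment with the lower of a pair of doses of THZ1, compared with the DMSO vehicle. THZ1 is a covalent inhibitor of CDK7 that also acts on CDK12 and CDK13. All rows of the Cov expression table that stand for a gene were taken, that is 23621 of the 23621 gene rows that the series holds for each line, after the 92 rows of ERCC spike-in RNAs had been set aside. The comparison uses 4 of the 12 RNA-seq libraries: 2 replicates of Cov cells given 50 nM THZ1 and 2 given DMSO, each for 6 hr. The other 8 libraries are Cov cells at 250 nM THZ1 and KURAMOCHI (Ku) cells, another ovarian cancer line, at the same doses. All cells, those given THZ1 and those given DMSO, were untransduced, with no added construct. Cov cells grew in DMEM and Ku cells in RPMI, both with fetal bovine serum and antibiotics, so line and medium cannot be told apart. Each line stands for 1 tumor, and whether the 2 replicates of a condition came from separate cultures is not given in the sources used here; p-values then measure only the spread between these libraries.

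RNA polymerase II makes the messenger RNAs of the cell, and its progress along a gene is set by kinases that phosphorylate the tail of its largest subunit. CDK7, a subunit of the general factor TFIIH, acts as the polymerase leaves the promoter. CDK9, with a cyclin T as P-TEFb, releases paused polymerase, and CDK12 and CDK13, with cyclin K, sustain elongation and are known for keeping up the expression of long DNA repair genes. Messenger RNAs with short half-lives, among them those of MYC and MCL1, are the first to be lost when transcription is blocked, whereas stable ones such as those of ribosomal proteins persist for hours.

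An expression value is an FPKM, the number of fragments per kilobase of transcript and per library size, which the authors had scaled so that the ERCC RNAs, added in equal amount to RNA from equal cell numbers, match between libraries. FPKM therefore stand for RNA per cell, and a lower level of all genes remains visible. Genes counted as active were those with an FPKM over 1 in any of the 12 libraries, which 14251 passed. A log2 fold change is the difference of mean log2(FPKM + 1), so it understates the change of genes with FPKM near or under 1, and a percentage of DMSO is the ratio of mean FPKM. Genes were tested with limma across the 6 Cov libraries, and a gene was called where its Benjamini-Hochberg adjusted p was under 0.001 and its change exceeded 0.5 on the log2 scale. For a single gene the smallest two-sided p of an exact permutation test on 2 and 2 libraries is 0.33, so the tests rest on the spread that limma pools over genes. Read counts are not in the table and the depth of the libraries is unknown. No value is 0, but 4904 or more rows of each library lie at or under a floor of about 0.1 FPKM.

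The labelled cell type was checked against its markers. The epithelial markers KRT7, KRT8, KRT18, KRT19 and EPCAM had mean FPKM of 1355, 1133, 792, 221 and 162 in DMSO, while CDH1, which encodes E-cadherin, had 4.45. Of the Müllerian and serous markers, PAX8, SOX17, WFDC2 and MSLN had 124, 117, 168 and 107 FPKM, MUC16, which encodes the CA125 antigen, had 5.71, and WT1 lay at 0.653, so that WT1, a defining serous marker, was near absent. Among 5 leukocyte markers, CD68 had 4.12 FPKM and the others were under 1. Among 4 endothelial markers CDH5 had 7.75 and KDR 1.05, and among 5 fibroblast markers COL1A1 had 3.17 and DCN and LUM were at the floor.

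Several sequences belong to the genes on which the results turn. The promoter windows of 4 genes are given first because these genes stand at the ends of the response. Of the genes called lower, PPP1R10 fell furthest among the longer ones and FADD among those of the death pathways, whereas RBM15 rose and BRD2 kept its level. The windows run from 250 bases before to 50 bases after the start of the gene, come from RefSeq on GRCh38.p14, and are written 5′ to 3′ on the strand of the gene. PPP1R10 is at chr6:30617194-30617493 (minus strand), FADD at chr11:70203046-70203345 (plus), RBM15 at chr1:110339127-110339426 (plus) and BRD2 at chr6:32968344-32968643 (plus). Capitals mark, on either strand, TATAAA (the core of the TATA box), CACGTG (an E-box, as MYC binds), TGACTCA (the AP-1 motif), TGACGTCA (the cyclic AMP response element), GGGCGG (the GC box) and CCAAT (the CCAAT box).
PPP1R10: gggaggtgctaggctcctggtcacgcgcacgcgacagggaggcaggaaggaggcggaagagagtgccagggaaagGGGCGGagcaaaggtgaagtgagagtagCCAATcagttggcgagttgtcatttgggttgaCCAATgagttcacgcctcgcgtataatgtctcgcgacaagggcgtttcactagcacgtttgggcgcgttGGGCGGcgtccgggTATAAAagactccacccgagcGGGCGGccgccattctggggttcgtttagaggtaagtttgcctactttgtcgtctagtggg
FADD: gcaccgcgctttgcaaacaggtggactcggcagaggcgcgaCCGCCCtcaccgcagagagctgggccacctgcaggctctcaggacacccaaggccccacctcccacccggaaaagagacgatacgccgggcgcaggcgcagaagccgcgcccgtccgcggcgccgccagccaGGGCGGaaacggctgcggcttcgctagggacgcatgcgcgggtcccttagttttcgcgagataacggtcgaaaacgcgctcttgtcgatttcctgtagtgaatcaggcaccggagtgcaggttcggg
RBM15: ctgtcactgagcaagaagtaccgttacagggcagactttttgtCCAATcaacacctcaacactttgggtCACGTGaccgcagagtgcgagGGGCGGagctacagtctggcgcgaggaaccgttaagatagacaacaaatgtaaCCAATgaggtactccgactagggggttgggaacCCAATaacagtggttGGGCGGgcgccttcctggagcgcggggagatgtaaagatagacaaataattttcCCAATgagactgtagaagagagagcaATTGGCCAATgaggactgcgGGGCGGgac
BRD2: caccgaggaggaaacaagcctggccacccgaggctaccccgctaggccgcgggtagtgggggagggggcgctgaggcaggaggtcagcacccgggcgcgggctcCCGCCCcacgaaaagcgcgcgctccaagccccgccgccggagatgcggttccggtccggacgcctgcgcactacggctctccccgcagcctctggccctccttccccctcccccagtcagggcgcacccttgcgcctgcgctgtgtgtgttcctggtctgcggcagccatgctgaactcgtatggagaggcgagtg
The PPP1R10 window held 1 TATAAA, 3 GGGCGG and 2 CCAAT, and the RBM15 window held 6 CCAAT, 3 GGGCGG and 1 CACGTG. The FADD window held 2 GGGCGG and the BRD2 window 1, with none of the other motifs.

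Small RNA rows had the largest fitted changes in both directions. For 3 box C/D snoRNAs, short RNAs that guide the methylation of ribosomal RNA and are cut from introns of host genes, the sequences from GENCODE on GRCh37 are given with box C and box D in capitals where a search found them. SNORD45C is at chr1:76252757-76252835 (plus), SNORD99 at chr1:28905261-28905334 (minus) and SNORD104 at chr17:62223443-62223512 (plus). SNORD99 and SNORD104 are shown because their rows hold the same values in every Cov library although the sequences differ.
SNORD45C: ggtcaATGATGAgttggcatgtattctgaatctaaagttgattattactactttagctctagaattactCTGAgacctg
SNORD99: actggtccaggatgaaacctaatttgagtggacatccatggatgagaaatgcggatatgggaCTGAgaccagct
SNORD104: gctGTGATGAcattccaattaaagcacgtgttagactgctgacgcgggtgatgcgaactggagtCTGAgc
For 4 microRNA rows described with the results, the mature RefSeq sequences are given with the seed, bases 2 to 8, in capitals. No seed is shared among the 4.
hsa-miR-3648: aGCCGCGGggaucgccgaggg
hsa-miR-663a: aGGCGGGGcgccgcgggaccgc
hsa-miR-622: aCAGUCUGcugagguuggagc
hsa-miR-1182: gAGGGUCUugggagggaugugac

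At 50 nM THZ1 the RNA content of Cov cells fell across most of the genome. Of the 14251 active genes, 10042 were called lower (70.5%) and 11 were called higher (0.0772%). In 13641 genes (95.7%) both 50 nM libraries lay below both DMSO libraries, in 96 genes (0.674%) they lay above, and in 514 genes (3.61%) the libraries overlapped. The median log2 fold change was -0.85, and it lay between -0.96 and -0.75 when each treated library was set against each DMSO library, and the median gene kept 49.1% of its DMSO level. The level at 50 nM was under 50% of DMSO in 7415 genes and under 25% in 1019, while 974 genes (6.83%) kept 75% or more. The count of calls rested in part on single libraries: without DMSO replicate 2 it was 4314 lower, and the count higher was 7 without DMSO replicate 1, 26 without 50 nM replicate 1 and 30 without 50 nM replicate 2.

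The size of the fall varied with the level in DMSO. Protein-coding genes with 10 to 30 FPKM had a median log2 fold change of -1.04, those with 100 to 300 FPKM had -0.74, and the 425 genes above 300 FPKM had -0.58, of which 47.5% were called lower. Low genes, with 1 to 3 FPKM, had a median of -0.61, where the pseudocount of 1 compresses the scale. When the libraries were rescaled by the median of ratios, a scaling that assumes an unchanged median gene, the median log2 fold change moved by 0.85 to 0.002, and 110 genes were called lower (0.772%) and 20 higher (0.14%). Values after this rescaling are changes relative to the common fall.

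**Figure D1:**
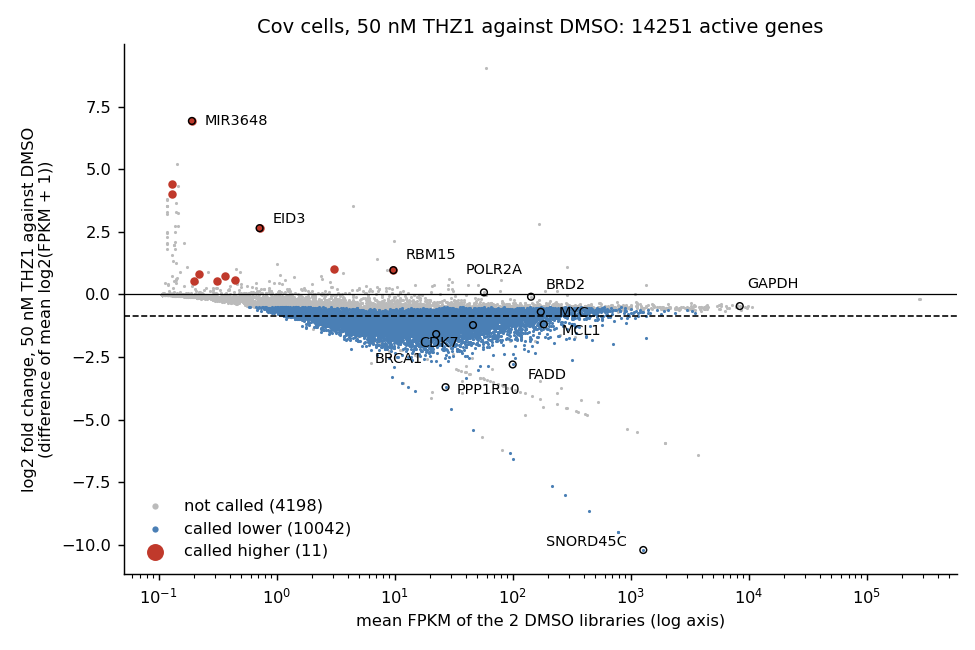
The mean FPKM of the 2 DMSO libraries (log axis) is plotted against the log2 fold change at 50 nM THZ1 for the 14251 active genes, with 10042 called lower (blue), 11 called higher (red) and the rest gray. The dashed line is the median of -0.85. Most points lie in a band below 0 that narrows and rises toward high FPKM, and a few small RNA rows such as SNORD45C and MIR3648 lie far from it; under median-of-ratios scaling the median lies at 0.002.

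The targets of THZ1 were themselves expressed in Cov cells and fell with the other genes. CDK7 had an FPKM of 44.7 and 47.4 in the DMSO libraries, 17.6 and 20.7 at 50 nM and 7.18 and 6.45 at 250 nM. The groups did not overlap, and at 50 nM the log2 fold change came to -1.23 ± 0.11 (SE, limma adjusted p = 5.19e-05, n = 2 per group). CDK12 went from 18.1 and 19.9 to 7.98 and 9.23 FPKM (-1.06 ± 0.11, limma adjusted p = 8.86e-05), and CDK13 from 17.5 and 18.4 to 8.04 and 9.80 FPKM (-0.94 ± 0.11, limma adjusted p = 0.000192). CCNK, the cyclin of CDK12 and CDK13, kept 61.4% of its level and missed the threshold (-0.68, limma adjusted p = 0.00101). Of the 6 kinases and cyclin partners of the list (CDK7, CCNH, MNAT1, CDK12, CDK13 and CCNK), 4 were called lower, beside 70.5% of all active genes, with a median of -0.88 beside -0.85 for all active genes; relative to the common fall the median was 0.09, so the direction flipped with the rescaling. Without DMSO replicate 2 the calls of CDK12 (limma adjusted p = 0.00139) and CDK13 (0.00264) were lost and 1 of the 6 was called, and CDK13 was lost without DMSO replicate 1 too (limma adjusted p = 0.0016), which left 2 of the 6 called.

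Other parts of the transcription machinery ranged widely around the 70.5% of all active genes called lower. All 7 other TFIIH subunits were called lower (median -0.99, -0.01 relative to the common fall). Of 8 P-TEFb and 7SK factors, 5 were called lower (median -0.78, 0.21 relative to the common fall). MEPCE, which caps the 7SK RNA that holds P-TEFb inactive, had 101 and 109 FPKM in DMSO, 24.6 and 23.99 at 50 nM, and 5.73 and 6.55 at 250 nM (-2.07 ± 0.09, limma adjusted p = 2.13e-05). CCNT2, a cyclin partner of CDK9, did not separate from DMSO, with 9.10 and 9.90 FPKM in DMSO against 9.12 and 10.99 (0.07 ± 0.12, limma adjusted p = 0.604). HEXIM1, the inhibitor of P-TEFb, had 19.3 and 20.3 FPKM in DMSO and 15.6 and 16.8 at 50 nM and missed the threshold (limma adjusted p = 0.0212). CDK9 kept 50.7% and was called lower, a call that was lost without DMSO replicate 2 (limma adjusted p = 0.00156).

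Among 12 RNA polymerase II subunits 9 were called lower, with a median of -0.67 (0.34 relative to the common fall). POLR2A, which encodes the largest subunit and carries the tail that these kinases phosphorylate, had 54.1 and 60.0 FPKM in DMSO and 61.4 and 58.9 at 50 nM, and its groups overlapped (0.08 ± 0.09, limma adjusted p = 0.456). POLR2D, a subunit of the stalk, fell to 41.4% (-1.23 ± 0.11, limma adjusted p = 5.04e-05). Of 33 Mediator genes 27 were called lower (median -0.95, -0.04 relative to the common fall), and MED7 fell furthest, from 29.7 and 31.3 to 5.25 and 7.15 FPKM. Of 20 active pausing and elongation factors 17 were called lower (median -0.89, 0.09 relative to the common fall), with NELFA, a subunit of the pausing complex NELF, the lowest at 29.9% of DMSO. Without DMSO replicate 2, when 4314 of all 14251 active genes were called lower, the counts were 2 of 7 for TFIIH (4 without DMSO replicate 1), 3 of 8 for P-TEFb and 7SK factors, 2 of 12 for polymerase subunits, 13 of 33 for Mediator and 6 of 20 for pausing and elongation factors.

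MYC, the transcription factor at the center of the study, fell less than the median gene. Its change lay near the median of -0.74 for protein-coding genes with 100 to 300 FPKM in DMSO. Its FPKM was 165 and 180.3 in DMSO and 105 and 107 at 50 nM, a level of 61.3% of DMSO (-0.70 ± 0.08, limma adjusted p = 0.00014). Relative to the common fall the value was 0.32, so the direction flipped with the rescaling. Without DMSO replicate 2 the log2 fold change was -0.64 and the call was lost (limma adjusted p = 0.00126). PVT1, the noncoding RNA gene next to MYC, kept a similar 62.0% (-0.64 ± 0.09, limma adjusted p = 0.000368), and its call was lost without either DMSO library or without 50 nM replicate 2 (limma adjusted p between 0.00143 and 0.00425). MAX, the dimerization partner of MYC, had 32.3 and 34.7 FPKM in DMSO and 15.3 and 16.8 at 50 nM (-1.02 ± 0.09, limma adjusted p = 5.41e-05). MLX, a partner of the related MondoA factors, fell furthest of the 11 active genes of this family, to 21.5% (-2.03 ± 0.12, limma adjusted p = 2.16e-05). In the family 8 of 11 were called lower, with a median of -0.87 (-0.03 relative to the common fall), beside 70.5% of all active genes called lower; the count was 5 of 11 without DMSO replicate 1 and 4 of 11 without DMSO replicate 2.

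Ribosome biogenesis factors and nucleotide synthesis enzymes, which include well-known MYC targets, had medians near that of all active genes, of which 70.5% were called lower. Of 30 biogenesis factors 27 were called lower (median -0.94, 0.04 relative to the common fall) and of 21 enzymes 17 (median -0.97, 0.05 relative to the common fall). PPAN, a nucleolar assembly factor, fell from 31.2 and 36.8 to 6.72 and 5.83 FPKM (-2.26 ± 0.12, limma adjusted p = 2.13e-05); it overlaps the readthrough gene PPAN-P2RY11, with which it can share reads. UMPS, which makes UMP, fell to 24.9%. NPM1, the most abundant of the factors at 3644 and 4267 FPKM, kept 70.5% and missed the threshold (-0.50, limma adjusted p = 0.00656). In the fit without DMSO replicate 2, 14 of the 30 factors and 12 of the 21 enzymes were called lower, beside 4314 of all 14251 active genes.

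Members of the BCL2 family that favor survival and members that favor death were both called lower. Of the 5 survival genes 3 were called lower (median -1.20, -0.18 relative to the common fall), beside 70.5% of all active genes. MCL1, a short-lived survival protein, had 171 and 196 FPKM in DMSO, 72.4 and 86.3 at 50 nM and 43.2 and 40.1 at 250 nM (-1.20 ± 0.12 at 50 nM, limma adjusted p = 7.12e-05). BCL2L2, which encodes BCL-w, fell from 11.7 and 12.1 to 3.13 and 4.34 FPKM; it overlaps the readthrough gene BCL2L2-PABPN1, with which it can share reads. Of the 10 active death genes of the family 8 were called lower (median -0.82, 0.05 relative to the common fall); both counts lie near that share. BMF fell furthest, to 19.6%, whereas PMAIP1, which encodes the MCL1 antagonist NOXA, kept its level with 22.2 and 25.7 FPKM in DMSO and 21.3 and 27.5 at 50 nM (0.02 ± 0.14, limma adjusted p = 0.917), the groups overlapping. When DMSO replicate 2 was left out, 2 of the 5 survival genes and 2 of the 10 death genes (5 without DMSO replicate 1) were called, beside 4314 of all 14251 active genes, and BCL2L2 was lost (limma adjusted p = 0.00102).

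All 14 caspase inhibitor and death receptor genes were called lower, beside 70.5% of all active genes, with a median of -1.41 (-0.44 relative to the common fall), the lowest median of the protein-coding gene lists. FADD, the adaptor that links death receptors to caspase 8, fell from 98.0 and 102 FPKM to 12.2 and 14.8, and to 1.62 and 1.89 at 250 nM (-2.80 ± 0.11 at 50 nM, limma adjusted p = 2.08e-05). FADD is a gene of 2 exons at chr11:70049402-70053496 (GRCh37). BIRC5, which encodes survivin, fell least, to 63.4%. Leaving out DMSO replicate 2, 7 of the 14 were called, beside 4314 of all 14251 active genes, and BIRC5 was lost without it and without 50 nM replicate 1 (limma adjusted p = 0.00238 and 0.00213). TNFRSF10D, a decoy receptor for TRAIL outside the list, rose and is described with the genes called higher.

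**Figure D2:**
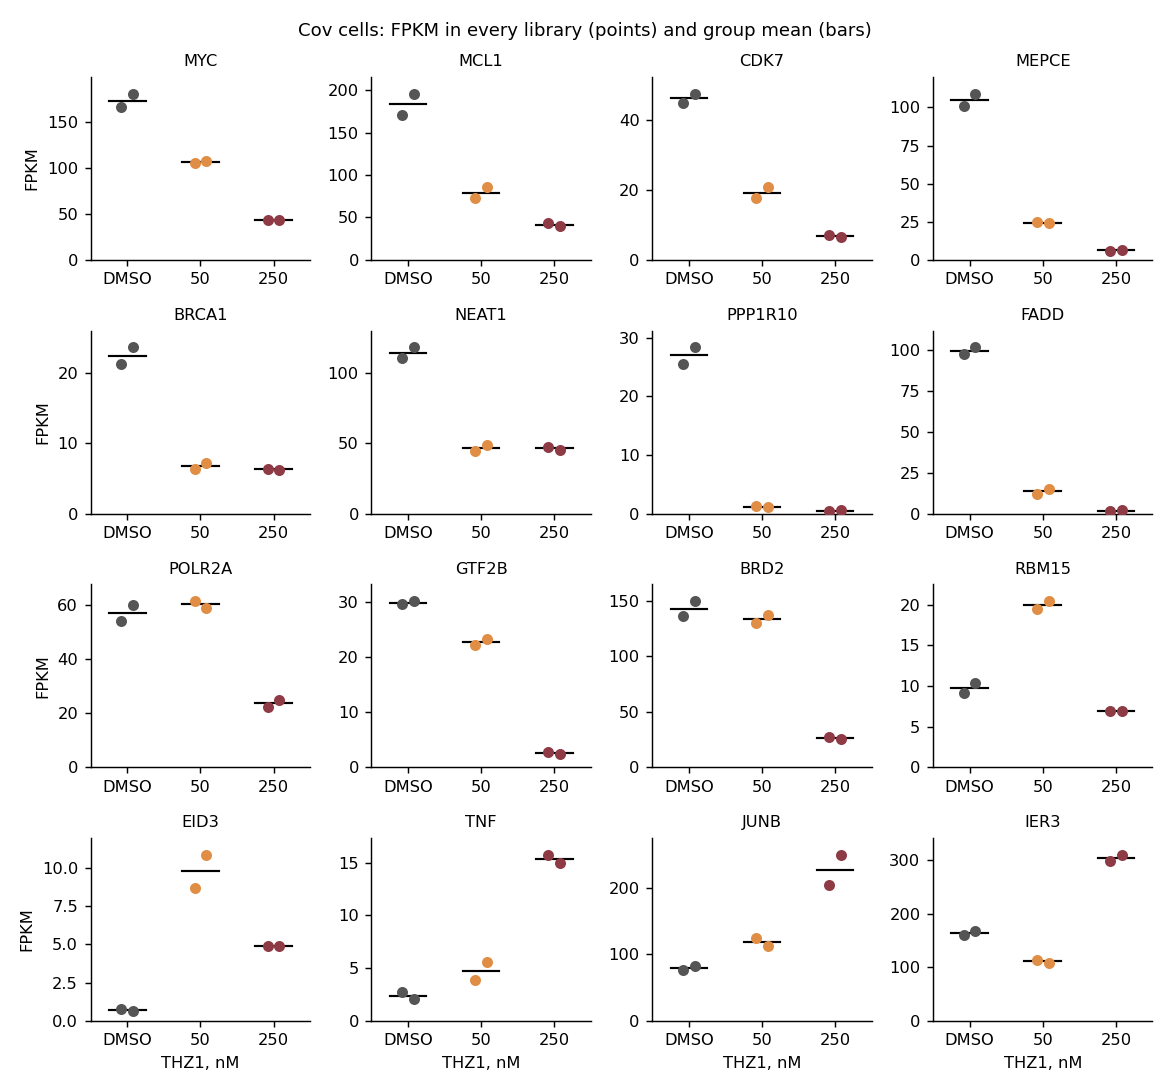
FPKM in each Cov library (points, linear axis from 0) and the mean of the 2 libraries (short lines) are plotted for 16 genes in DMSO and at 50 and 250 nM THZ1. MYC, MCL1, CDK7, MEPCE and FADD stepped down at both doses, BRCA1 and NEAT1 at 50 nM with no further step, POLR2A and BRD2 at 250 nM, and RBM15 and EID3 peaked at 50 nM; relative to the common fall MYC (0.32) and BRD2 (0.93) lay above 0 at 50 nM.

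Immediate early genes, which cells switch on within minutes of a stimulus, did not move together. Of 8 active AP-1 genes 4 were called lower, beside 70.5% of all active genes (median -0.70, 0.11 relative to the common fall). FOSL1, the most abundant of them, fell from 320.1 and 338 FPKM to 97.8 and 93.3 (-1.77 ± 0.08, limma adjusted p = 2.13e-05). JUNB had 76.2 and 82.1 FPKM in DMSO and 124 and 112 at 50 nM, with no overlap, but missed the threshold (0.57 ± 0.12, limma adjusted p = 0.00227). Of 18 other immediate early genes 13 were called lower (median -0.80, 0.15 relative to the common fall) and 8 and 5 without the first and the second DMSO library. DUSP1, a phosphatase that ends MAP kinase signals, fell to 27.998%, whereas IER2 had 74.7 and 80.1 FPKM in DMSO and 91.2 and 80.7 at 50 nM (0.15, limma adjusted p = 0.196). IER3 was called lower with 67.8% of DMSO, a call that was lost without any 1 of the 4 libraries of the comparison (limma adjusted p between 0.00129 and 0.00446).

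Of 15 NF-kB feedback and chemokine genes 11 were called lower (median -0.97, 0.03 relative to the common fall), near the 70.5% of all active genes, and 7 without DMSO replicate 2. CCL2, a monocyte chemokine and the most abundant of them, fell from 387 and 445 to 124 and 128 FPKM (-1.71 ± 0.11, limma adjusted p = 2.28e-05). TNF went the other way, with 2.69 and 2.09 FPKM in DMSO, 3.85 and 5.56 at 50 nM and 15.8 and 14.97 at 250 nM. The difference at 50 nM missed the threshold (0.74 ± 0.16, limma adjusted p = 0.00365) and passed it without 50 nM replicate 1 (0.96, limma adjusted p = 0.000294).

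The lists of homologous recombination, Fanconi anemia and DNA damage checkpoint genes had lower medians than all active genes at 50 nM. Their median DMSO levels were 16.7, 16.4 and 20.6 FPKM. Protein-coding genes with 10 to 30 FPKM had a median of -1.04, with 85.6% called lower. Of 20 homologous recombination genes, which repair double-strand breaks with a sister copy, 19 were called lower, beside 70.5% of all active genes, with a median of -1.35 and 35.5% of DMSO left (-0.42 relative to the common fall). BRCA1 had 21.3 and 23.7 FPKM in DMSO, 6.36 and 7.25 at 50 nM, and 6.36 and 6.26 at 250 nM (-1.59 ± 0.10 at 50 nM, limma adjusted p = 2.37e-05). BRCA2 went from 4.17 and 4.81 to 0.860 and 1.41 FPKM (-1.37 ± 0.14, limma adjusted p = 8.99e-05), and its call was lost without DMSO replicate 2 (limma adjusted p = 0.00103). EXO1, a nuclease that resects broken ends, fell furthest, from 27.99 and 31.9 to 5.60 and 6.21 FPKM. RAD51B, at 3.55 and 3.45 FPKM, was the 1 gene of the list not called (-0.53, limma adjusted p = 0.00195), and RBBP8, the most abundant, kept 54.0% with a call that was lost without either DMSO library or 50 nM replicate 1 (limma adjusted p between 0.00108 and 0.00378). The count was 13 of 20 without DMSO replicate 2, beside 4314 of all 14251 active genes.

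Of 13 Fanconi anemia genes, which handle DNA crosslinks, 12 were called lower, beside 70.5% of all active genes (median -1.09, -0.23 relative to the common fall). FANCF, a gene of 1 exon, fell from 4.89 and 4.89 to 0.513 and 0.694 FPKM, whereas FANCA, with 43 exons, kept its level with 19.7 and 21.2 against 20.7 and 22.6 FPKM (0.08 ± 0.09, limma adjusted p = 0.44). FANCD2 kept 50.4%, and its call was lost without either DMSO library (limma adjusted p = 0.00173 and 0.00385). Of 17 DNA damage checkpoint genes 16 were called lower (median -1.21, -0.26 relative to the common fall) and 5 without DMSO replicate 2, when 4314 of all 14251 active genes were called. ATRIP, the partner of the ATR kinase, fell from 20.7 and 20.4 to 3.25 and 3.40 FPKM (-2.32 ± 0.09, limma adjusted p = 1.95e-05); it overlaps TREX1 on the same strand. ATR kept 37.3% and ATM 42.9%, and both calls were lost without DMSO replicate 2 (limma adjusted p = 0.00152 and 0.00213), that of ATM also without DMSO replicate 1 (limma adjusted p = 0.00133).

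Most cell cycle genes were called lower, as were 70.5% of all active genes. Of 30 mitotic genes 29 were called lower (median -1.20, -0.18 relative to the common fall), and 22 without DMSO replicate 2, when 4314 of all 14251 active genes were called. AURKA, a spindle kinase, had 134 and 148 FPKM in DMSO, 37.4 and 43.8 at 50 nM and 6.38 and 6.16 at 250 nM (-1.77 ± 0.10 at 50 nM, limma adjusted p = 2.16e-05). CCNB1, the mitotic cyclin, fell to 37.2%, and UBE2C, the most abundant gene of the list, to 47.9%. Of 19 active G1 cyclin and E2F genes 17 were called lower (median -1.20, -0.20 relative to the common fall). CCND1, which encodes cyclin D1, fell from 391.5 and 446 to 126 and 135 FPKM and E2F5 from 16.2 and 17.7 to 2.65 and 4.28. All 28 DNA replication genes were called lower, with a median of -0.96 that was 0.02 relative to the common fall, and 15 without DMSO replicate 2. GINS1, a subunit of the replicative helicase, fell furthest, from 13.7 and 15.7 to 2.24 and 2.67 FPKM (-2.18 ± 0.11, limma adjusted p = 2.16e-05).

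Genes of abundant cell machinery fell less than the median gene. Of 81 active cytoplasmic ribosomal protein genes 11 were called lower, beside 70.5% of all active genes, with a median of -0.54 (0.49 relative to the common fall) and 68.5% of DMSO left, a count that was 30 without DMSO replicate 1, 0 without DMSO replicate 2, 2 and 1 without the first and the second 50 nM library, and 5 without either 250 nM library. RPL41 had 9886 and 11210 FPKM in DMSO and 7399 and 7434 at 50 nM (-0.51 ± 0.13, limma adjusted p = 0.00683), and it passed without DMSO replicate 1 (limma adjusted p = 0.000996). RPLP2 kept 76.8%. RPL21 stood apart because 50 nM replicate 2 lay at the floor, with 0.121 FPKM beside 213 in replicate 1 and 235 and 242 in DMSO. Of 74 respiratory chain and ATP synthase genes 34 were called lower (median -0.55, 0.47 relative to the common fall), of 41 proteasome subunits 27 (median -0.64, 0.38 relative to the common fall) and of 17 glycolytic enzymes 9 (median -0.57, 0.45 relative to the common fall); without DMSO replicate 2 the counts were 2, 2 and 3, beside 4314 of all 14251 active genes. The respiratory chain count ran from 9 to 20 without any 1 of the other libraries, the proteasome count was 13 without 50 nM replicate 1, and the glycolysis count was 4 and 5 without the first and the second 50 nM library. GAPDH, often used as a reference gene, had 7828 and 8944 FPKM in DMSO and 6164 and 5921 at 50 nM (-0.47 ± 0.13, limma adjusted p = 0.012), and relative to the common fall its value was 0.56. EEF1A1, a translation elongation factor, kept 65.0% (limma adjusted p = 0.00269), and passed without DMSO replicate 1 (limma adjusted p = 0.00054).

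Single genes fell further than their lists. PSMD5, a proteasome assembly chaperone of the proteasome list, kept 41.1%, and its call was lost without DMSO replicate 2 (limma adjusted p = 0.00133). HSPA8, the constitutive HSP70 chaperone and a member of the heat shock list, fell from 1278 and 1419 to 386 and 426 FPKM (-1.73 ± 0.10, limma adjusted p = 2.16e-05), whereas the inducible HSPA1B had 199 and 212 FPKM in DMSO and 183 and 162 at 50 nM (-0.25 ± 0.11, limma adjusted p = 0.0585). Of 42 active replication-dependent histone genes, whose messages mostly lack a poly(A) tail, 6 were called lower, beside 70.5% of all active genes. Their median was -0.38 (0.39 relative to the common fall), and the count moved in both directions when single libraries were left out. The median DMSO level of the list was only 5.16 FPKM, and poly(A) libraries do not target messages without a tail. HIST1H2BK, the most abundant of them, kept 67.5%, a call that was lost without each of the 6 Cov libraries in turn (limma adjusted p between 0.00121 and 0.00619), and HIST1H4C, with the highest value, was at 0.144 and 1.19 FPKM in DMSO and 3.32 and 0.107 at 50 nM, its libraries overlapping.

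Genes of stress, signaling and lineage varied, and several lists had shares called near the 70.5% of all active genes. Of 20 heat shock and chaperone genes 15 were called lower (median -0.73, 0.30 relative to the common fall), 4 without DMSO replicate 2, when 4314 of all 14251 active genes were called, and 8 without 50 nM replicate 1. Of 12 keratin and epithelial junction genes 9 were called lower (median -0.72, 0.16 relative to it), 5 and 1 without the first and the second DMSO library and 4 without 50 nM replicate 2. Of 10 mesenchymal genes 5 were called lower (median -0.66, 0.19 relative to it), 3 without DMSO replicate 2 and 2 without 50 nM replicate 1, and of 14 SMAD, ID and TGIF genes 9 (median -0.85, 0.15 relative to it), 5 without either DMSO library. All 15 genes of the ATF4 stress response were called lower (median -1.13, -0.13 relative to the common fall), 9 without DMSO replicate 2, and DDIT3, which encodes the stress factor CHOP, fell from 54.3 and 58.0 to 12.9 and 10.46 FPKM. All 12 YAP and TEAD target genes were called lower (median -1.21, -0.20 relative to the common fall), 7 without DMSO replicate 2. ANKRD1, a common readout of YAP activity, fell from 295 and 338 to 47.4 and 54.7 FPKM and to 10.2 and 7.82 at 250 nM (-2.61 ± 0.14 at 50 nM, limma adjusted p = 2.16e-05). EGFR, a receptor tyrosine kinase, fell to 32.6%. Among 14 serous lineage factors and antigens 12 were called lower (median -0.81, -0.02 relative to the common fall), 4 without DMSO replicate 2. PAX8, the lineage factor of Müllerian epithelium, fell from 120.3 and 128 to 29.5 and 29.6 FPKM (-2.03 ± 0.08, limma adjusted p = 1.9e-05). Of the antigens, MUC16 fell to 47.6%, MUC1 to 55.7% and WFDC2 to 63.1%, and MSLN kept 74.1%, beside 49.1% for the median gene; MSLN missed the threshold (limma adjusted p = 0.00887), MUC16 was lost without DMSO replicate 2 (limma adjusted p = 0.00287), and WFDC2 was lost without DMSO replicate 2 or 50 nM replicate 1 (limma adjusted p = 0.00135 and 0.00127). Among 455 active ZNF zinc finger genes 388 were called lower, with a median of -1.12 (-0.36 relative to the common fall), and ZNF623 fell furthest, to 12.1% of DMSO.

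**Figure D3:**
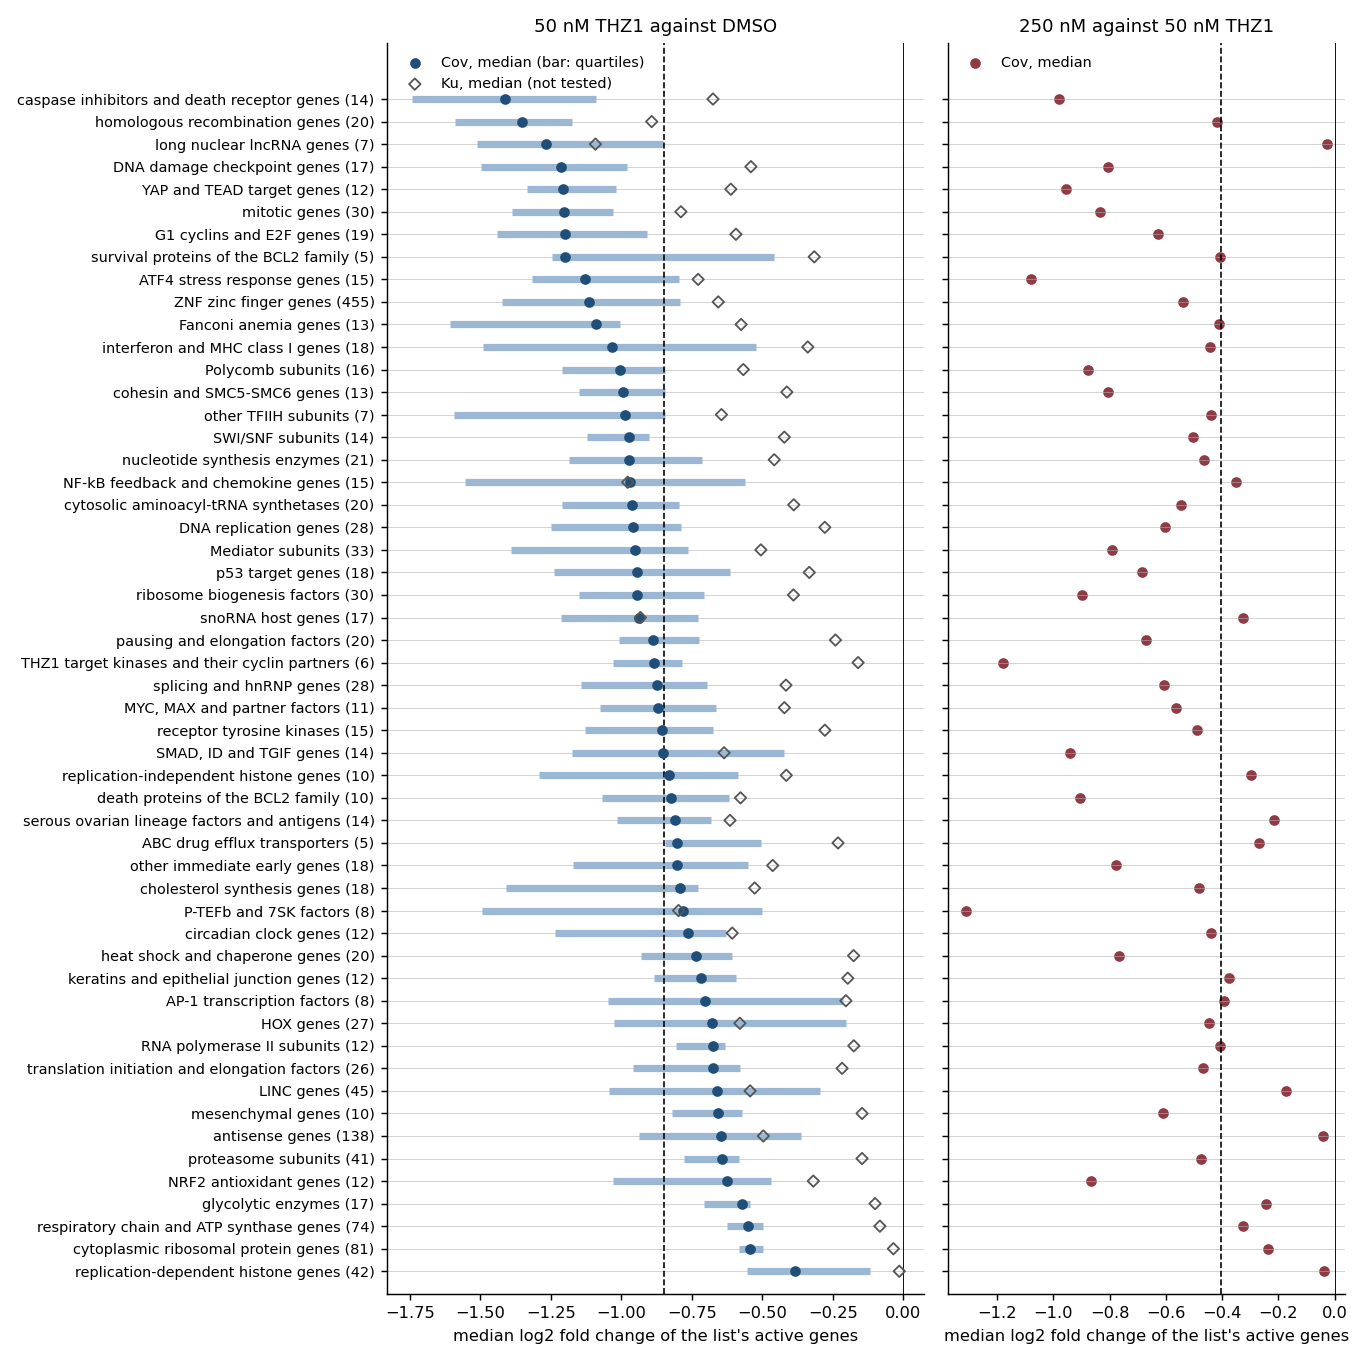
The median log2 fold change of each gene list (number of active genes in parentheses) is plotted for 50 nM THZ1 against DMSO in Cov cells (left, filled points with bars from the first to the third quartile) and Ku cells (open diamonds, not tested), and for 250 nM against 50 nM in Cov cells (right), with dashed lines at the medians of all active genes, -0.85 and -0.41. Caspase inhibitor and death receptor genes (-1.41) and homologous recombination genes (-1.35) lay to the left of the dashed line and ribosomal protein (-0.54) and replication-dependent histone genes (-0.38) to its right; under median-of-ratios scaling the first pair lay at -0.44 and -0.42 and the second flipped to 0.49 and 0.39.

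Among genes called lower with at least 10 FPKM in DMSO, the largest falls were those of 11 small RNA rows, PPP1R10, 2 more small RNA rows and KRCC1. PPP1R10, the regulatory subunit of a nuclear phosphatase complex that acts on RNA polymerase II, had 25.6 and 28.4 FPKM in DMSO, 1.21 and 1.07 at 50 nM, and 0.469 and 0.551 at 250 nM. Both treated groups lay far below DMSO, and 4.22% of the DMSO level was left at 50 nM (-3.71 ± 0.10, limma adjusted p = 5.11e-06). The gene has 20 exons and lies at chr6:30568190-30586389 (GRCh37), where it overlaps MRPS18B on the other strand, which kept 34.4 of 86.6 FPKM. KRCC1, a gene of 4 exons, fell from 35.2 and 44.6 to 2.91 and 3.17 FPKM (-3.33 ± 0.13, limma adjusted p = 1.9e-05). Other genes with large falls, chosen after their values were seen, were CYP1B1, a cytochrome P450, with 10.6% of DMSO left, NABP1, a single-stranded DNA binding protein, with 12.3%, MEOX1, a homeobox factor, with 12.2%, ZC3H4, which restricts noncoding transcription, with 10.4%, and PCF11, a transcription termination factor, with 19.3%.

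When the common fall was taken out, 110 genes remained lower, of which 12 were small RNA rows and 98 were longer genes. The 98 kept a median of 16.1% of their DMSO level. Of the 92 that are protein-coding and have a canonical transcript 17 had 1 or 2 exons (18.5%), beside 890 of 12884 such active genes (6.91%). In Ku cells, whose libraries entered this selection only through the filter on active genes and the adjustment over them, both 50 nM libraries lay below both DMSO libraries in 97 of the 98 (99.0%), beside 10798 of all 14251 active genes (75.8%), and the 98 kept a median of 21.9% there beside 69.98% for all active genes. The exception, ST6GALNAC5, was at or near the floor in Ku cells and is named after its values were seen.

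The 11 genes called higher fell into 3 kinds. The first kind was 5 genes that stayed under 1.3 FPKM in every Cov library, namely MGC12916, LOC100335030, UCKL1-AS1, RASD1 and OMP, with log2 fold changes between 0.53 and 0.79. MGC12916 and LOC100335030 reached at most 0.769 and 0.992 FPKM in Cov cells and counted as active through Ku libraries. LOC100335030 and UCKL1-AS1 passed the filter of 1 FPKM only in 50 nM libraries, and RASD1 and OMP only in libraries treated with THZ1, so these 4 entered the test through the treatment in which they were high. The 5 calls were lost without DMSO replicate 2, and those of MGC12916, LOC100335030, UCKL1-AS1 and RASD1 without DMSO replicate 1 as well. That of UCKL1-AS1 was also lost without 50 nM replicate 1 or either 250 nM library. Without 50 nM replicate 2 the changes of MGC12916 and LOC100335030 were 0.490 and 0.494, under the threshold of 0.5. Another 3 genes reached higher levels. RBM15, an RNA binding protein of the m6A methylation complex, had 9.10 and 10.4 FPKM in DMSO, 19.4 and 20.4 at 50 nM, and 6.90 and 6.85 at 250 nM. It reached 205% of DMSO at the lower dose and lay below DMSO at the higher one, a log2 fold change of 0.96 ± 0.10 for the lower dose (limma adjusted p = 8.84e-05). EID3, a gene of 1 exon at chr12:104697517-104698983 (GRCh37) that encodes a subunit of the SMC5-SMC6 complex, had 0.787 and 0.645 FPKM in DMSO, 8.67 and 10.9 at 50 nM and 4.89 and 4.90 at 250 nM (2.64 ± 0.12 at 50 nM, limma adjusted p = 2.13e-05). EID3 lies within TXNRD1 on the same strand, and TXNRD1 fell from a mean of 566 to 284 FPKM, so reads of the TXNRD1 transcript could be counted for EID3 and their part in the result was not tested. TNFRSF10D had 2.93 and 3.21 FPKM in DMSO and 6.54 and 8.08 at 50 nM (1.03 ± 0.13, limma adjusted p = 0.000208), and its call was lost without either DMSO library (limma adjusted p = 0.00220 and 0.0019).

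The last 3 genes called higher were small RNA rows that lay at or near the floor in DMSO. MIR3648 had 0.185 and 0.198 FPKM in DMSO, 136 and 151 at 50 nM, and 283 and 481 at 250 nM. SNORA72 had 17.4 and 17.1 FPKM at 50 nM and SNORA42 had 32.4 and 15.8, and both were at the floor in the DMSO and 250 nM libraries of Cov cells. SNORA42 passed the filter only in 50 nM libraries, those in which it was high. The fitted changes of rows at the floor depend on the pseudocount. After the common fall was taken out, 20 genes were higher, of which 2 were small RNA rows. Chosen after their values were seen, NXF1, the main export factor of messenger RNA, had 39.6 and 43.3 FPKM in DMSO and 54.2 and 53.6 at 50 nM, ARGLU1 and CPSF6, which act in splicing and in the choice of poly(A) site, had 131% and 116% of DMSO, and SAT1, which acetylates polyamines, had 144%. ID2, an inhibitor of differentiation, had 132%, and ZC3HAV1, an antiviral RNA binding protein, 98.4%. In Ku cells 12 of the 18 longer genes of this set lay above DMSO in both 50 nM libraries (66.7%), beside 492 of all 14251 active genes (3.45%).

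Among genes with at least 100 FPKM in DMSO, those with the least fall were 8 small RNA rows and 4 others. BRD2, a bromodomain protein, had 136 and 149.7 FPKM in DMSO and 130.04 and 137 at 50 nM, and its groups overlapped (-0.10 ± 0.08, limma adjusted p = 0.309). It is a gene of 13 exons at chr6:32936371-32949282 (GRCh37). OAT, a mitochondrial aminotransferase, kept 85.0% and ID1, a relative of ID2, kept 84.4%, and neither passed the test (limma adjusted p = 0.0543 and 0.0739). SNHG9, a noncoding host of snoRNAs, had 169 and 207 FPKM in DMSO and 189 and 218 at 50 nM (limma adjusted p = 0.424).

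The libraries were made from polyadenylated RNA, in which mature microRNAs and snoRNAs are not a target, and FPKM of very short genes are large for few reads. Of 256 active rows of microRNAs, snoRNAs and Cajal body RNAs 235 were not called (91.8%), beside 4198 of all 14251 active genes. In 73 of these rows the 50 nM and DMSO libraries overlapped (28.5%), beside 514 of all 14251 active genes (3.61%). The 107 active microRNA rows had a median DMSO level of 0.191 FPKM, too near the floor for their median change to be read. SNORD45C fell from 1366 and 1188 FPKM in DMSO to the floor at 50 nM, and SNORD99 and SNORD104 each fell from 837 and 725 to the floor, with identical values in all 6 Cov libraries. SNORD60 (471 and 407), SNORD35A (298 and 258), SNORD88B (188 and 246), MIR1182 (107 and 96.4) and MIR1248 (133 and 57.0) fell to the floor in the same way, as did SNORA24, SNORA44, SCARNA15, SNORA1 and SNORA84 from between 10.7 and 56.4 FPKM. The host genes of some of them fell less: RABGGTB, which spans SNORD45C, from a mean of 109 to 30.8 FPKM, and SNHG12, which spans SNORD99, from 34.8 to 6.67.

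In some other small RNA rows 1 library decided the value, and in others the replicates lay closer together. MIR662 was at 336 and 0.166 FPKM in DMSO and 141 and 135 at 50 nM, MIR4653 at 471 and 0.123 in DMSO and 590 and 0.0892 at 50 nM, and SNORD84 at the floor in DMSO and at 0.0972 and 1621 at 50 nM. MIR663A had 0.184 and 119 FPKM in DMSO, 7869 and 4956 at 50 nM and 10373 and 20984 at 250 nM; it missed the threshold (limma adjusted p = 0.00232) and passed it without either DMSO library. MIR622 had 306 and 275 FPKM in DMSO and 784 and 493 at 50 nM (1.095 ± 0.30, limma adjusted p = 0.00973), MIR147B had 1120.3 and 1575 against 1826 and 1580.4, MIR5047 had 1100.3 and 1069 against 1050.04 and 1165, and MIR671 had 218 and 360.2 against 318 and 237. MIR1244-3 and MIR1244-2, near-identical copies that each took about the same FPKM, were the largest rows of the table, with MIR1244-3 at 254647 and 305243 FPKM in DMSO and 220616 and 277930 at 50 nM; this row alone held between 17.3% and 23.2% of the summed FPKM in these 4 libraries. Neither copy passed the test (limma adjusted p = 0.578 and 0.575).

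Long noncoding RNAs fell with the messenger RNAs. Of 353 active genes annotated as lncRNA 49.9% were called lower, with a median of -0.69, beside 73.6% and -0.87 for 12940 protein-coding genes. Of the 7 active genes of a list of long noncoding RNAs, most of them nuclear, 6 were called lower (median -1.27, -0.25 relative to the common fall). LINC00657, a cytoplasmic lncRNA also known as NORAD, fell from 108 and 127 to 29.1 and 36.2 FPKM (-1.82 ± 0.13, limma adjusted p = 2.8e-05). NEAT1, which builds paraspeckles, and MALAT1, a lncRNA of nuclear speckles, were chosen after their values were seen. NEAT1 had 111 and 118 FPKM in DMSO and 44.7 and 49.0 at 50 nM, and MALAT1 had 17.7 and 19.02 against 7.95 and 8.60, a call that was lost without DMSO replicate 2 (limma adjusted p = 0.00104).

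Gene structure was set against the fall in 12940 protein-coding active genes, of which 99.6% had a canonical transcript in GENCODE. Among the 7882 with at least 10 FPKM in DMSO, the median log2 fold change was -0.81 for genes spanning up to 5 kb, -0.98 for 50 to 100 kb and -0.93 for over 200 kb. The medians differed more by transcript length: canonical transcripts up to 1 kb had -0.63 and those over 5 kb -1.005. Short transcripts were also abundant, with a median DMSO FPKM of 130.1 against 23.5. Within genes of 30 to 100 FPKM in DMSO, the medians were -0.75 for up to 1 kb (157 genes), -0.89 for 1 to 2 kb and -0.97 for over 5 kb (566 genes). In the same genes those with 1 exon had a median of -1.05 (40 genes) and those with 2 exons -1.03 (90 genes), while genes with 3 exons or more had medians between -0.92 and -0.91. These medians are a description and were not tested.

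**Figure D4:**
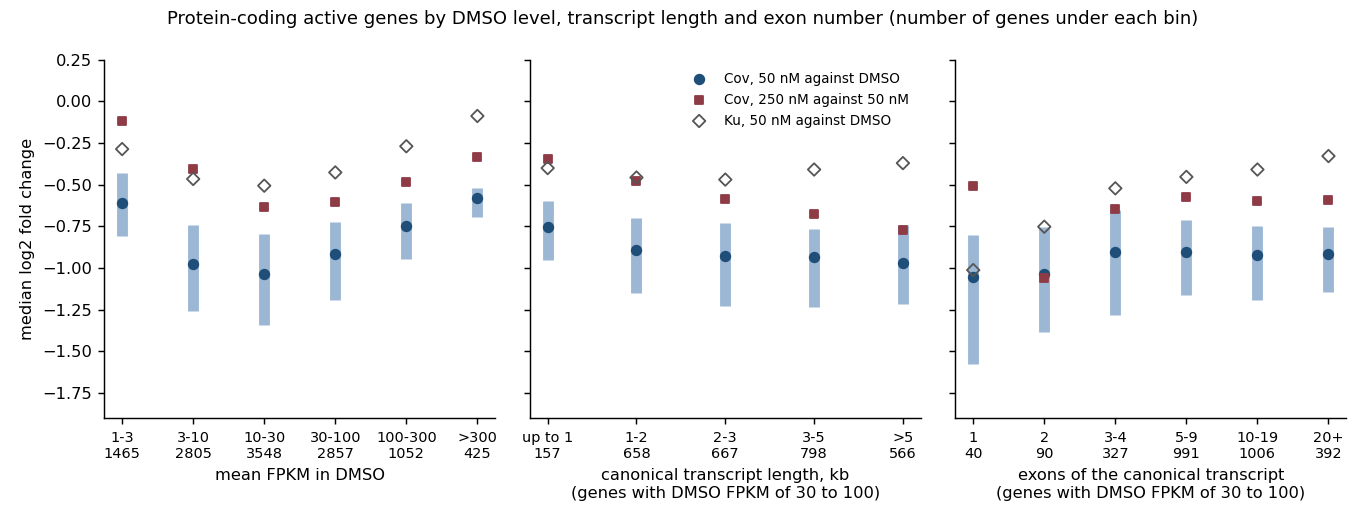
Median log2 fold changes of protein-coding active genes are plotted by mean DMSO FPKM (left) and, within genes of 30 to 100 FPKM in DMSO, by the length (center) and exon number (right) of the canonical transcript, for Cov 50 nM against DMSO (filled points, bars from the first to the third quartile), Cov 250 nM against 50 nM (squares) and Ku 50 nM against DMSO (diamonds). The Cov medians at 50 nM were lowest at 10 to 30 FPKM (-1.04) and reached -1.05 and -1.03 for genes of 1 and 2 exons.

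Promoter windows were found for 10804 of the 14251 active genes. Of all 27305 windows 11.95% held TATAAA, 7.43% CACGTG, 4.92% TGACTCA, 1.98% TGACGTCA, 44.6% GGGCGG and 35.7% CCAAT, and of those of active genes 5.76%, 10.2%, 3.13%, 3.27%, 69.9% and 36.7%, counting either strand; none of these motifs is part of another. Of the 98 longer genes that fell beyond the common fall 76 had a window, of which 7.89% held TATAAA, 5.26% CACGTG, 3.95% TGACTCA, 5.26% TGACGTCA, 69.7% GGGCGG and 50.0% CCAAT. A match is a string of letters in the window and not a site of binding.

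The step from 50 to 250 nM was tested directly in the same fit. Between the doses 3474 genes were lower (24.4%) and 12 higher (0.0842%), with a median log2 fold change of -0.41. Of the 10042 genes lower at 50 nM, 2984 fell again (29.7%), 7053 were not called between the doses (70.2%) and 5 were higher at 250 nM, and 486 of the 4198 genes not called at 50 nM (11.6%) were lower at 250 nM. The count rested on single libraries: it was 1692 and 1518 without the first and the second 250 nM library and 2193 and 2197 without the first and the second DMSO library. The 2 comparisons share the 50 nM libraries, so their values are set side by side only.

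Many groups fell again at the second step, as log2 differences of 250 nM from 50 nM show. The kinases and cyclin partners of THZ1 had a median of -1.18 between the doses and P-TEFb and 7SK factors -1.31, beside -0.41 for all active genes, and 4 of 6 and 6 of 8 were called lower, beside 24.4% of all active genes. In percent of DMSO the first step was the larger, with medians of 52.9% and 57.3% left at 50 nM and 21.6% and 20.6% at 250 nM. Other lists also had low medians between the doses. Of 15 ATF4 stress response genes 11 were called lower (median -1.08), and of 12 YAP and TEAD target genes 10 (median -0.95), 6 without either 250 nM library. Of 30 ribosome biogenesis factors 23 were called lower (median -0.90), 12 and 11 without the first and the second 250 nM library, 15 without either DMSO library and 14 without 50 nM replicate 2. Of 30 mitotic genes 18 were called lower (median -0.84), 11 and 8 without the first and the second 250 nM library. GTF2B, the general factor TFIIB, had 29.6 and 30.2 FPKM in DMSO, 22.3 and 23.3 at 50 nM and 2.72 and 2.38 at 250 nM. It kept 76.3% at the lower dose and 8.53% at the higher, a step of -2.75 ± 0.09 between the doses (limma adjusted p = 3.38e-05). FAM83D, a spindle protein, kept 72.1% and 8.36%, BRD2 93.4% and 18.4%, POLR2A 105% and 41.2%, CCNT2 106% and 29.5%, PMAIP1 102% and 39.2%, HSPA1B 84.0% and 19.8% and FANCA 106% and 43.97%; each of these was called lower at 250 nM than at 50 nM, PMAIP1 not without either 250 nM library (limma adjusted p = 0.00103 and 0.00157). RBM15 fell below its DMSO level (-1.41 ± 0.10 between the doses, limma adjusted p = 6.45e-05).

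Some genes called lower at 50 nM were not called between the doses, while others of the same lists fell again. Homologous recombination genes had a median of -0.42 between the doses, with 4 of 20 called lower (2 without any 1 of the DMSO or 250 nM libraries), beside -0.41 and 24.4% for all active genes. The DNA damage checkpoint genes had a median of -0.81, with 7 of 17 called lower (2 without 250 nM replicate 1, 3 without 250 nM replicate 2 or either DMSO library and 11 without 50 nM replicate 1), and EXO1 (-0.94) and ATRIP (-0.91) were called lower again, calls that were lost without any 1 of the DMSO or 250 nM libraries (limma adjusted p between 0.00104 and 0.00252). The list of long noncoding RNAs had a median of -0.03, with LINC00657 called lower again (-1.38, from 27.7% to 10.1% of DMSO). BRCA1 kept 30.3% at 50 nM and 28.1% at 250 nM (-0.09 ± 0.10 between the doses, limma adjusted p = 0.48), NEAT1 41.0% and 40.6%, GINS1 16.7% and 13.5%, CYP1B1 10.6% and 9.32%, BCL2L2 31.4% and 34.8%, ATM 42.9% and 51.7%, MALAT1 45.0% and 56.5%, MUC1 55.7% and 52.1% and WFDC2 63.1% and 61.3%. None of the genes from BRCA1 to WFDC2 was called between the doses. MYC and MCL1 had sizable steps at both doses, MYC reaching 25.2% at 250 nM (-1.26 ± 0.08 between the doses, limma adjusted p = 5.02e-05) and MCL1 22.7% (-0.91 ± 0.12, limma adjusted p = 0.000576, lost without 5 of the 6 libraries in turn, with limma adjusted p between 0.00106 and 0.00328). Of the genes higher at 250 nM than at 50 nM, TNF (1.54 ± 0.16, limma adjusted p = 0.000284), JUNB (0.93 ± 0.12, limma adjusted p = 0.000524) and IER3 (1.45 ± 0.08, limma adjusted p = 3.82e-05) reached 644%, 287% and 186% of DMSO. The calls of TNF were lost without either 250 nM library (limma adjusted p = 0.00136 and 0.0012) and those of JUNB without either DMSO library, 50 nM replicate 2 or 250 nM replicate 2 (limma adjusted p between 0.00125 and 0.00211).

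The same dose in Ku cells gave smaller falls. The tables of the lines were normalized separately and the lines were not tested against each other, so Ku values stand beside those of Cov only. The median log2 fold change of active genes was -0.40 in Ku cells. PPP1R10 (2.59% of DMSO left in Ku, 4.22% in Cov), FADD (8.77% and 13.5%), KRCC1 (4.13% and 7.62%), BRCA1 (24.6% and 30.3%), MEPCE (24.02% and 23.1%) and PAX8 (30.7% and 23.8%) were low in both lines. RBM15 had 170% in Ku and 205% in Cov, and JUNB 187% and 149.5%. MYC kept 64.3% in Ku and 61.3% in Cov. CDK7 kept 67.4% in Ku against 41.6% in Cov, and MCL1 74.9% against 43.3%. For EID3 the lines went apart, with means of 1.68 FPKM in DMSO and 0.787 at 50 nM in Ku cells.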

How the data were processed

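RNA was extracted from Cov and Ku cells after 6 hr of treatment, adjusted to cell number, mixed with ERCC RNAs and made into stranded poly(A) libraries that were read as single ends. Per the labels, the reads were processed with HISAT, Cufflinks and Cuffnorm on hg19, and the authors deposited FPKM normalized to the spike-ins, with separate tables for Cov and Ku cells; versions and the strand setting are not given in the sources used here. FPKM are not counts, so the count test the study used was not run, and depth is unknown. All columns were used. The median deviation of 48 measured ERCC RNAs was within 0.045 log2 units in each Cov library, the summed FPKM ran from 758681 to 1686570, and replicates correlated with r between 0.975 and 0.980 across active genes.

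Active genes (FPKM above 1 in at least 1 of 12 libraries) were transformed as log2(FPKM + 1) and fitted with limma 3.58.1 (lmFit, eBayes with trend, two-sided) in R 4.3.3, with 3 Cov groups of 2 libraries. Files were read with data.table (version 1.17.8), and annotation and figures used Python 3.11.15 and matplotlib 3.10.9. P-values were adjusted over all 14251 genes by the Benjamini-Hochberg method, with thresholds of 0.001 and 0.5. The fit was tested on simulated data. Symbols matched GENCODE on GRCh37 directly in 20416 rows, through an older symbol in 1539 and not at all in 1666; 516 of the last were active. Reads shared by overlapping genes and near-identical copies could not be separated.

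The gene lists and the genes to describe were chosen with earlier results of these data known, so no list was tested and each is described by its counts and median. Genes were named by a rule: the genes central to the study, all genes called higher, the 15 with the largest fall from at least 10 FPKM, the 12 with the least fall among those of at least 100 FPKM, the extreme and the most abundant members of each list, and the 5 with the largest fall between the doses among those that had kept their level. Alternatives were a pseudocount of 0.1, other FPKM minimums, median-of-ratios scaling, a fit of 2 groups, a replicate block, eBayes without trend, thresholds of 0.05 and 1, and each Cov library left out. ARGLU1, ATM, ATR, CCNB1, CDK9, CPSF6, CYP1B1, FANCD2, HEXIM1, MALAT1, MEOX1, NABP1, NEAT1, NXF1, PCF11, SAT1, WFDC2, ZC3H4 and ZC3HAV1 were chosen after their values were seen. Some genes that the rule names are not reported here. The alternatives without small RNA rows and the bins of the canonical transcript were chosen after seeing the data.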

Additional observations from a re-analysis of the deposited data

Results flagged for a closer look

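In 11 of the named genes, apart from MIR147B, both 50 nM libraries lay on one side of DMSO in Cov cells and on the other side in Ku cells. These differences between the lines were not tested, and the tables were normalized separately. MIR147B, with log2 fold changes of 0.354 in Cov and -0.0177 in Ku cells, is left aside because its Ku values lay near the floor of about 0.1 FPKM. EID3 had a log2 fold change of 2.64 in Cov and -0.59 in Ku cells. GTF2B had -0.38 and 0.52, OAT -0.23 and 0.48, HSPA1B -0.25 and 0.26 and NDUFC2 -0.31 and 0.33. HIST1H2BK had -0.56 and 0.14, WFDC2 -0.66 and 0.16 and MSLN -0.43 and 0.07. MIR622 had 1.095 and -0.66. SNORA72, at 4.02 and -5.16, and RPL21, at -3.95 and 0.66, rest on libraries at the floor, for RPL21 a single 50 nM library. Such fitted values depend on the pseudocount and are no bound. GTF2B, OAT, HSPA1B, NDUFC2, MSLN, MIR622 and RPL21 did not pass the test in Cov cells.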

How the results depend on the processing

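Of the counts and the median at 50 nM, those not named here moved by less than 1.5 times or by less than the spread between library pairs. The 10042 genes lower at 50 nM became 110 after median-of-ratios scaling and 5054 at a log2 fold change beyond 1, and ran from 4314 to 9929 when each library was left out. The 11 higher became 20 after that scaling, 6 at a minimum of 10 FPKM, 32 at an adjusted p of 0.05 and 5 at a log2 fold change beyond 1, and ran from 7 to 30. The median of -0.85 became 0.00201 after that scaling, -1.002 with a pseudocount of 0.1 and -0.50 with no minimum, and ran from -0.91 to -0.79. The 3474 genes lower at 250 nM than at 50 nM became 1129 after that scaling, 2127 with no minimum, 5909 at an adjusted p of 0.05 and 2035 at a log2 fold change beyond 1, and ran from 1518 to 3974. The 12 higher became 71, 7, 41 and 6 under the same settings and ran from 10 to 26. For counts at a stricter fold or a looser p, the threshold itself sets the direction; for the others the cause was not tested.

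With a replicate block the counts were 7266 lower and 8 higher at 50 nM and 1130 lower and 4 higher between the doses. Deviations of same-numbered libraries correlated with 0.028, -0.070 and -0.051 across active genes. These correlations leave out a shift in level shared by all genes, so they cannot decide whether same-numbered libraries belong together.

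After median-of-ratios scaling 32 of the 128 named genes changed sign: MYC 0.32, PVT1 0.31, CDK13 0.0165, MIR671 0.99, BRD2 0.93, MIR1244-3 0.86, MIR1244-2 0.86, OAT 0.79, ID1 0.78, FAM83D 0.54, GTF2B 0.61, CCNK 0.32, NPM1 0.53, BIRC5 0.37, IER3 0.47, RBBP8 0.13, RAD51B 0.21, HIST1H2BK 0.46, RPL41 0.53, RPLP2 0.65, NDUFC2 0.72, GAPDH 0.56, EEF1A1 0.41, HSPA1B 0.77, MSLN 0.59, MUC1 0.19, KRT8 0.70, ZC3HAV1 0.99, HEXIM1 0.69, CDK9 0.0491, FANCD2 0.036 and WFDC2 0.36. With each library left out in turn the sign changed in 10 values, which ran from -1.28 to 6.90 for MIR662, -4.40 to 4.68 for MIR4653 (-4.22 without DMSO replicate 2), -0.0289 to 0.265 for SNHG9, -0.0469 to 0.103 for MIR5047, -0.39 to 0.33 for MIR671 (0.18 without 50 nM replicate 2), -0.0516 to 0.192 for CCNT2, -0.16 to 0.19 for PMAIP1 (-0.08 without DMSO replicate 1), -0.52 to 1.45 for HIST1H4C, -0.058 to 10.47 for SNORD84 and -0.121 to 0.0798 for ZC3HAV1. These 10 genes were not called with all libraries. No named value between the doses changed sign.

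With 2 libraries a group and no read counts, the precision of a low value is unknown, and small RNA rows can hang on 1 library. The table cannot tell fewer transcripts per cell from a change in the share of cells.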

Other observations

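Several gene groups not described above fell close to the median gene. All 20 cytosolic aminoacyl-tRNA synthetases, which charge tRNAs with amino acids, and all 14 SWI/SNF chromatin remodeling subunits were called lower, with medians of -0.96 and -0.97 (0.06 and -0.01 relative to the common fall). Of 28 splicing and hnRNP genes 26 were called lower (median -0.87, 0.14 relative to the common fall), of 16 Polycomb subunits 13 (median -1.003, -0.10 relative to the common fall) and of 18 cholesterol synthesis genes 16 (median -0.79, 0.15 relative to the common fall). Over all active genes 70.5% were called lower. Without DMSO replicate 2 these counts were 11, 7, 10, 7 and 6, beside 4314 of all 14251 active genes, and without 50 nM replicate 1 the splicing count was 16.

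Other groups had shares called near or below the 70.5% of all active genes. Of 18 p53 target genes 12 were called lower (median -0.94, -0.06 relative to the common fall), of 18 interferon and MHC class I genes 13 (median -1.03, -0.06 relative to the common fall), of 12 NRF2 antioxidant genes 5 (median -0.62, 0.28 relative to the common fall), of 26 translation factors 16 (median -0.67, 0.35 relative to the common fall) and of 27 active HOX genes 14 (median -0.68, 0.02 relative to the common fall). Without DMSO replicate 2 these counts were 3, 9, 4, 6 and 5, beside the same 4314. The translation factor count was 10 without 50 nM replicate 1, and the HOX count 7 without DMSO replicate 1.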
